A study of Mus musculus with 7 samples.

Results

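Transcripts of 31 genes that mark dividing cells and the granule neuron progenitors of the cerebellum were followed in RNA sequencing of mouse cerebellum. The genes were taken by symbol from a given list, and all 31 were among the 24421 gene symbols counted. By role they comprised 12 genes of S phase and DNA replication, 12 genes of G2 and M phase, and 7 genes of granule progenitors and hedgehog signalling. The series compared 4 C57BL/6 libraries labelled CicKO (genotype En1-Cre; Cicflox/flox) with 3 C57BL/6 libraries labelled Wildtype (genotype Cicflox/+, so these controls carry 1 floxed allele and no Cre is named for them). En1 is expressed in the embryonic midbrain and hindbrain. Cre placed under its control recombines floxed DNA in the descendants of those cells, here aimed at Cic, which encodes a transcriptional repressor. Counts of Cic in the tissue were lowered but not absent (below). Since Cre is named for 1 group, what Cre does and what the loss of Cic does cannot be told apart. Age, sex and litter were not given in the sources used here, and nothing states that the libraries came from separate animals. If they did not, p-values would measure only the spread between these libraries.

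The cell cycle genes are read out in waves. E2F factors switch on the S phase genes, whose products license and copy DNA, and the G2 and M phase genes follow through promoters with CCAAT boxes and a cell cycle homology element. In the developing cerebellum, Purkinje cells release sonic hedgehog, which acts on granule progenitors of the external granular layer through the receptor PTCH1 and the GLI transcription factors and keeps them dividing. Once the progenitors have left the cycle and migrated inwards that layer is gone, and in the mature cerebellum GLI1 is read out mainly in Bergmann glia.

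The promoters of 25 of the 31 genes were held in a RefSeq table on GRCm38.p6 (250 bases before to 50 bases after the start), without Sfrp1, Gli1, Mcm4, Ccna2, Ccne2 and Aurkb. The exact letters TTTGAA of the cell cycle homology element lay on either strand in 7 of 10 G2 and M phase promoters and 1 of 10 S phase promoters, and in 2 of 5 hedgehog and progenitor promoters, against 20.2% of all 27025 gene symbols in the table. The letters CCAAT lay in 9 of 10, 7 of 10 and 1 of 5 (41.1% of all), and an E2F site written TTTGGCGC or TTTCCCGC lay in 0 of 10 and 4 of 10, namely Mcm3, Mcm5, Mcm6 and Mcm7, and in 1 of 5, namely Mycn (1.80% of all). In the sequences shown, no match overlapped another. Neither the GLI letters GACCACCCA (0.289% of all) nor the CIC letters TGAATGAA or TGAATGGA (2.85% of all) were found in any of the 25 windows. The promoters of Mcm3 and Mcm6 are shown as examples of the E2F pattern and those of Cdk1 and Ccnb2 as examples of the G2 and M phase pattern, 5′ to 3′, with every match to a searched motif in capitals.
Mcm3, chr1:20820263-20820562, minus strand: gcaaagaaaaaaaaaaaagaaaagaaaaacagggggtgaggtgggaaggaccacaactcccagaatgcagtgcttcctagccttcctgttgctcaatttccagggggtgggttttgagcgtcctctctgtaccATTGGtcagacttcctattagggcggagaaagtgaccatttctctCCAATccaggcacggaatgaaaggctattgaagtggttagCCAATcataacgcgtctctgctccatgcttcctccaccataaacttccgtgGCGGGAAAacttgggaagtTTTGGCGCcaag
Mcm6, chr1:128359656-128359955, minus strand: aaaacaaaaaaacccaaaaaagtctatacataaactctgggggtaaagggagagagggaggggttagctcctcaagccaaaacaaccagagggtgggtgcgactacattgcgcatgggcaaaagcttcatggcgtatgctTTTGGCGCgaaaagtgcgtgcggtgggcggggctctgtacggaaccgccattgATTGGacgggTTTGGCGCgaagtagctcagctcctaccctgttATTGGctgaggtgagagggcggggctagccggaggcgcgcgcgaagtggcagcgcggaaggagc
Cdk1, chr10:69352863-69353162, minus strand: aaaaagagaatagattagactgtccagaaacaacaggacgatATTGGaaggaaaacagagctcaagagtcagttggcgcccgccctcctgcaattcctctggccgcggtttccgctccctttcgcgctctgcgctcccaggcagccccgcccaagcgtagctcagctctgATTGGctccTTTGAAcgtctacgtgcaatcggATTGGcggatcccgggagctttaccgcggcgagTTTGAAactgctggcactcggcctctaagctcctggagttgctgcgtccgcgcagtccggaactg
Ccnb2, chr9:70421505-70421804, minus strand: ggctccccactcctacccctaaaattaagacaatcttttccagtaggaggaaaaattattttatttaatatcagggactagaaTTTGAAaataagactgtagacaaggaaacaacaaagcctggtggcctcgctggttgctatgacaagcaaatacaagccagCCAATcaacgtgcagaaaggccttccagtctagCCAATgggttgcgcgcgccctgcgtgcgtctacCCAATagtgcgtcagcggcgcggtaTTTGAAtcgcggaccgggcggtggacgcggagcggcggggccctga
Mcm3 and Mcm6 held 2 E2F matches each, with 3 and 2 CCAAT matches, and Cdk1 and Ccnb2 held 2 matches to the homology element and 3 to CCAAT each. A match describes the letters of the window and not a bound site.

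The S phase and hedgehog genes were readily measured in these cerebella, whereas most G2 and M phase genes were counted at low levels. Levels are given as CPM, the count of a gene relative to the TMM-scaled library total, and between genes as CPM per kilobase of merged exon. In the controls the median S phase gene stood at 2.11 ± 0.197 CPM per kilobase (SD, n = 3) and the median G2 and M phase gene at 0.0668 ± 0.00189, and in the knockouts these medians were 1.98 ± 0.110 and 0.0794 ± 0.0182 (SD, n = 4). The hedgehog and progenitor genes had medians of 1.16 ± 0.186 in the controls and 1.26 ± 0.0816 in the knockouts. With the longest transcript as length, the S phase medians were 3.05 and 3.02 CPM per kilobase in controls and knockouts. Among 23376 gene symbols with a length, the median gene of the 3 roles lay at the 55.4th, 32.5th and 50.7th percentile of level per kilobase in the controls.

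Pcna, the sliding clamp that holds DNA polymerases on their template and also serves in DNA repair, was highest of the 31 at 23.3 ± 0.405 CPM per kilobase in the controls (SD, n = 3), the 90.3th percentile. Ptch1 followed at 7.82 ± 1.17, then the helicase subunits Mcm7 at 7.14 ± 0.334 and Mcm4 at 6.99 ± 0.472, and these 3 did not differ beyond their spread. Gli1 stood at 5.43 ± 0.449 and Ccne1, the cyclin E that opens S phase with CDK2, at 4.51 ± 0.0455. At the other end, the proliferation antigen gene Mki67 stood at 0.0286 ± 0.00984, the centromere gene Cenpf at 0.0243 ± 0.00338 and the topoisomerase gene Top2a at 0.0238 ± 0.0102, again within each other's spread. Ccnb2, a mitotic cyclin, was the highest of the G2 and M phase genes at 1.305 ± 0.294.

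Atoh1, the transcription factor gene that defines granule progenitors, was not detectable at this depth. It had 2, 1, 0 and 0 counts in knockouts 1 to 4 and 0, 1 and 0 counts in controls 1 to 3, under the 3 counts taken as the limit of a count of 0. That limit corresponds to 0.0245 to 0.0295 CPM, from 102653765 to 121285349 gene counts per library, and accounts for counting error alone, since reads copied by amplification and not tagged by molecule can repeat 1 transcript. The name granule progenitor therefore describes the list and not a cell type seen in these libraries. The plot of levels by library shows the 3 roles.

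**Figure D1:**
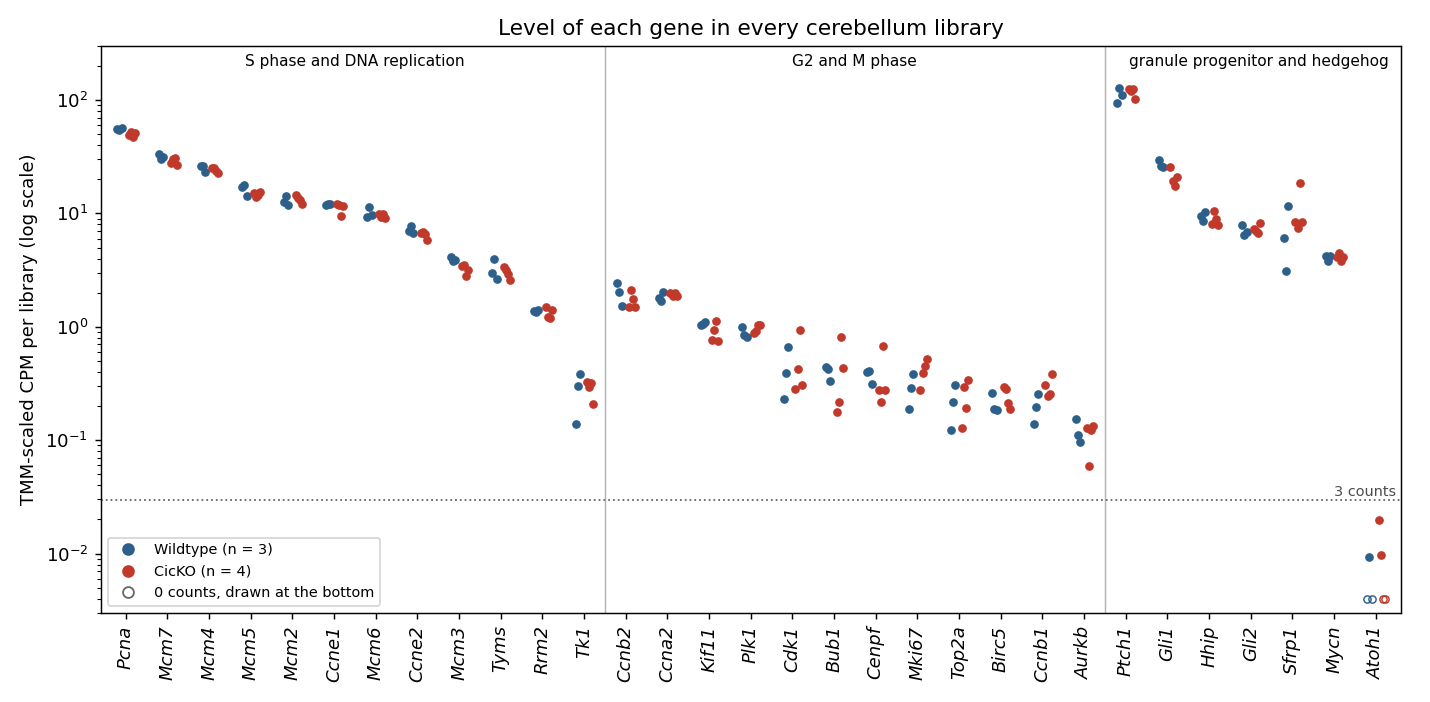
TMM-scaled CPM (log scale) of the 31 genes in every library, by role and ordered by control mean, with control points in blue (n = 3) and knockout points in red (n = 4); the dotted line is the highest level that 3 counts correspond to, 0.0295 CPM. Control and knockout points overlap for every gene but Pcna, Mcm3 and Gli1, and Atoh1 lies under the line in all libraries.

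**Figure D2:**
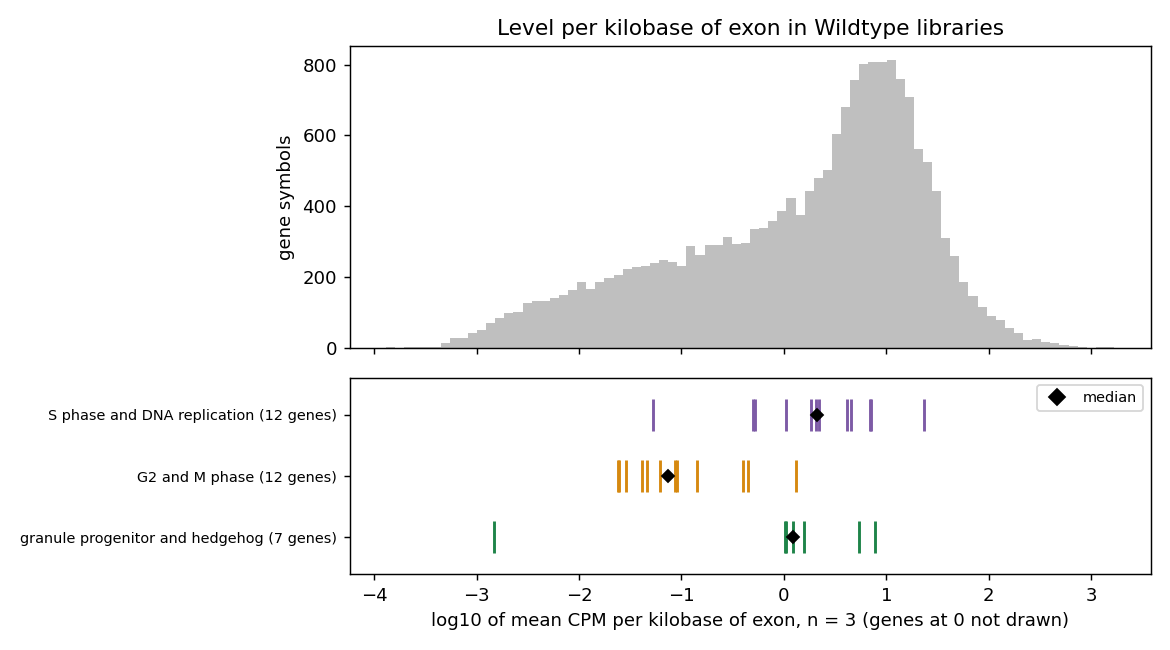
Level per kilobase of exon in the controls (log10 scale, mean of 3 libraries) for all gene symbols with a length (grey histogram) and for the listed genes (coloured ticks, 1 per gene, with the median of each role as a black diamond). The G2 and M phase median lies well below those of the S phase and hedgehog genes.

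Without the replicate number as a block none of the 31 genes was called between the knockouts and the controls, and with it 1 was called higher (Sfrp1) and 1 lower (Gli1). Over all genes that block called 310 higher and 204 lower, against 212 and 140 in the main test. Of the 30 members that passed the filter on low counts (all but Atoh1), edgeR's quasi-likelihood test called 0 higher and 0 lower in the knockouts at a Benjamini-Hochberg adjusted p below 0.05, where 1.25% of all 16905 genes tested were called higher and 0.828% lower. DESeq2 and limma-voom also called 0 in either direction, and DESeq2 gave Aurkb no adjusted p. At an unadjusted p below 0.05, 0 members were higher and 3 lower (Pcna, Mcm3 and Gli1), beside 8.06% and 8.16% of all genes. The same 3 genes had every knockout library below every control library, and 0 had every knockout above, against 8.36% and 7.06% of all genes. Log2 fold changes (knockout minus control) were positive for 14 and negative for 16 members, with a median of -0.05 against -0.0044 over all genes.

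The precision of this comparison differed by role. The 95% interval of the log2 fold change lay wholly between -0.5 and 0.5 for 10 of 12 S phase genes, 1 of 12 G2 and M phase genes and 4 of 6 hedgehog and progenitor genes, and between -1 and 1 for 12, 7 and 5 of them. Its median width to each side was 0.22, 0.72 and 0.27. The G2 and M phase gene with an interval inside the narrower range was Ccna2.

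**Figure D3:**
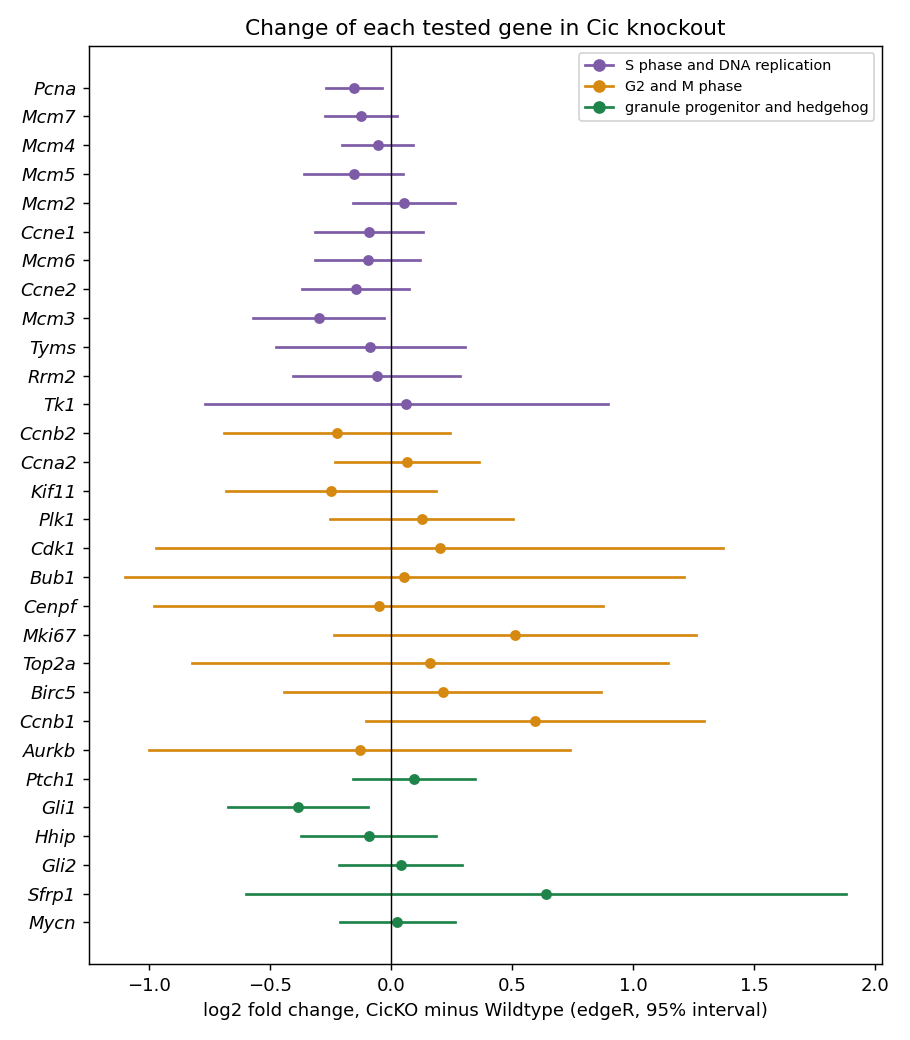
Log2 fold change, knockout minus control, of the 30 tested genes with its 95% interval from edgeR (not adjusted for the number of genes), coloured by role. The intervals of Pcna, Mcm3 and Gli1 exclude 0, and those of the G2 and M phase genes are the widest as a group.

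None of the 12 S phase genes was called, and most had values slightly below 0. Log2 fold changes were negative for 10 of 12, where 48.8% of all genes tested had a value above 0. Their median was -0.09, and they ranged from -0.30 for Mcm3 to 0.06 for Tk1. Summed over the 12 genes, the level was 169, 172, 163 and 162 CPM in knockouts 1 to 4 and 182, 184 and 174 CPM in controls 1 to 3, so that the highest knockout lay just under the lowest control. The largest part of this sum was Pcna, at 47.7 to 52.7 CPM in knockout and 54.8 to 56.7 CPM in control libraries. Of the 12 genes, 2 (Pcna and Mcm3) had every knockout below every control, beside 8.36% of all genes.

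Pcna was at 49.0, 52.7, 47.7 and 51.3 CPM in knockouts 1 to 4 and at 56.0, 54.8 and 56.7 CPM in controls 1 to 3. All knockouts were lower than all controls, but the gene was not called (log2 fold change -0.15, SE 0.0501, 95% interval -0.27 to -0.04, adjusted p = 0.181). The means were 50.2 ± 2.27 CPM in knockouts and 55.8 ± 0.972 CPM in controls (SD, n = 4 and 3). Mcm3, a subunit of the replicative helicase, was at 3.43, 3.50, 2.79 and 3.16 CPM in the knockouts and 4.14, 3.84 and 3.90 CPM in the controls. Its groups did not overlap either (log2 fold change -0.30, SE 0.118, 95% interval -0.57 to -0.03, adjusted p = 0.258).

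The other helicase subunits overlapped between the groups. Mcm7 was at 26.8 to 30.8 CPM in knockout and 30.3 to 33.2 CPM in control libraries, and Mcm5 at 13.9 to 15.5 and 14.2 to 17.9 CPM, with log2 fold changes of -0.13 and -0.15 (adjusted p = 0.395 and 0.443). Mcm4, Mcm6 and Mcm2 had log2 fold changes of -0.06, -0.10 and 0.05, of which Mcm2 was the only positive value among the 6 subunits. That sign turned with the share of counted entries that fell in no gene as a covariate (below, the no-feature covariate) and without control 3, where it was -0.0306 and -0.0003998. The cyclin E genes Ccne1 and Ccne2 had -0.09 and -0.15, and the nucleotide synthesis genes Rrm2 (ribonucleotide reductase) and Tyms (thymidylate synthase) had -0.06 and -0.09. Tk1, the salvage thymidine kinase, was the lowest of the 12 at 0.209 to 0.325 CPM in knockout and 0.139 to 0.386 CPM in control libraries.

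Some S phase, mitotic and hedgehog genes share sequence or exons with other loci in the GENCODE M21 annotation of GRCm38, and their levels are uncertain to that extent. Pcna has a processed pseudogene on chromosome 19 that is 99.2% identical over 781 bases, Mcm7 a pseudogene on chromosome 16 (97.7% over 2152 bases), and Ccnb1 has 3, of which Ccnb1-ps on chromosome 7 is 99.2% identical over 1287 bases. Shorter near-identical stretches were found for Rrm2 (419 bases) and Mki67 (216 bases). Exons overlapped those of a gene on the opposite strand over 17.4% of the exon bases of Ccne2 (Ints8), 12.5% of Ccna2 (Exosc9), 7.25% of Mcm7 (Ap4m1), 7.09% of Plk1 (Gm44985) and 5.31% of Gli1 (the antisense gene Gm47200). Smaller overlaps of this kind were found for Hhip (1.93%, Gm27820), Mcm7, Tk1 and Gli1. The strand setting of the counting was not given in the sources used here, so whether reads of such pairs were kept apart is not known.

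The G2 and M phase genes were low in every library and none was called. In the controls 3 of the 12 averaged at least 1 CPM (Ccnb2, Ccna2 and Kif11), and the other genes had as few as 6 counts in a library (Aurkb in knockout 2). Log2 fold changes were positive for 8 and negative for 4, with a median of 0.10. The summed level of the 12 was 7.01, 7.96, 9.55 and 7.70 CPM in knockouts 1 to 4 and 8.18, 7.86 and 8.003 CPM in controls 1 to 3, so the controls lay within the range of the knockouts.

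Mki67 was at 0.276, 0.392, 0.448 and 0.523 CPM in knockouts 1 to 4 and 0.188, 0.290 and 0.386 CPM in controls 1 to 3. The groups overlapped (log2 fold change 0.51, SE 0.327, 95% interval -0.23 to 1.26, adjusted p = 0.489). Ccnb1, the cyclin that activates CDK1 at mitotic entry, was at 0.305, 0.245, 0.255 and 0.380 CPM in the knockouts and 0.139, 0.196 and 0.254 CPM in the controls, with 1 knockout below the highest control (log2 fold change 0.59, SE 0.305, 95% interval -0.10 to 1.29, adjusted p = 0.388). The related Ccnb2 had a log2 fold change of the other sign, -0.22, and the S to M phase cyclin Ccna2 had 0.07 (adjusted p = 0.64 and 0.849).

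Cdk1, the kinase that drives mitosis, was highest in the library numbered 3 of each group, at 0.941 CPM in knockout 3 against 0.286 to 0.421 in the other knockouts, and at 0.657 CPM in control 3 against 0.228 and 0.392. Its log2 fold change was 0.20 with all libraries and -0.34 without knockout 3 (adjusted p = 0.887 and 0.678). Bub1, a kinase of the spindle checkpoint, was at 0.818 CPM in knockout 3 and 0.177 to 0.437 CPM elsewhere in that group, and its log2 fold change of 0.05 became -0.52 without that library. For Cenpf the values were 0.677 CPM in knockout 3, 0.215 to 0.276 CPM in the other knockouts, and log2 fold changes of -0.05 and -0.55. Knockout 3 was the highest of all 7 libraries for 5 of the 12 genes.

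The libraries numbered 3 also stood apart in markers of the choroid plexus, the secretory epithelium of the brain ventricles. The summed level of 8 such markers was 8485 CPM in knockout 3 and 6138 CPM in control 3, mostly from Ttr (8006 and 5814 CPM), and 44.8 to 143 CPM in the other libraries. All 8 were detected, and 0 were called between the groups by edgeR, DESeq2 or limma-voom or reached an unadjusted p below 0.05. Whether this tissue contributed to the mitotic transcripts was not tested. Without both of these libraries edgeR called 0 of the tested members.

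The remaining mitotic genes had wide intervals. Aurkb and Birc5, which encode subunits of the chromosomal passenger complex, had log2 fold changes of -0.13 and 0.21, and Plk1, a mitotic kinase, had 0.13. Kif11, the kinesin that separates spindle poles, had -0.25 and Top2a had 0.16. Adjusted p lay between 0.567 and 0.903 for these 5 genes.

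Among the hedgehog and progenitor genes, Gli1 was lower in every knockout but was not called, and Sfrp1 varied most. Gli1, the transcription factor gene that is the standard readout of hedgehog signalling, was at 25.6, 19.2, 17.4 and 20.9 CPM in knockouts 1 to 4 and 29.7, 26.0 and 25.7 CPM in controls 1 to 3. Knockout 1 lay just below control 3, and the other knockouts were clearly lower (means 20.8 ± 3.51 and 27.1 ± 2.24 CPM, SD, n = 4 and 3). The log2 fold change was -0.38 (SE 0.126, 95% interval -0.67 to -0.10, adjusted p = 0.184). With the replicate number as a block, which leaves knockout 4 without a partner and without weight in the fold change, Gli1 was called lower (-0.40, adjusted p = 0.0373). Over the other alternatives it was not called, with adjusted p from 0.0584 in DESeq2 to 0.755 with the no-feature covariate.

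Beside Gli1, the summed level of 8 genes listed as Bergmann glia markers was 2844 to 3062 CPM in knockout and 3411 to 3597 CPM in control libraries, without overlap. The largest parts of this sum were Slc1a3 and Slc1a2 (log2 fold changes -0.22 and -0.07, neither called). Of these 8, Gdf10, Agt and Aqp4 were called lower (log2 fold changes -0.59, -0.70 and -0.42, adjusted p = 0.00256, 0.00694 and 0.0408) and 0 higher, beside 0.828% and 1.25% of all genes. The markers did not move as 1, with 6 negative values and 2 positive (Hopx 0.15 and Fabp7 5.4e-05). Every knockout lay below every control for 4 of the 8, beside 8.36% of all genes. The part of Bergmann glia in the level of Gli1 was not tested, and in bulk tissue fewer cells of a type and less RNA per cell cannot be told apart. No list for other astrocytes was examined, so the lower sum cannot be assigned to Bergmann glia alone. The calls of Agt and Aqp4 were lost with the no-feature covariate (adjusted p = 0.122 and 0.166), and that of Aqp4 also without both libraries numbered 3 (0.095) and without knockout 1 or 4 or any 1 control (up to 0.165 without control 3). The no-feature share was 18.2% to 19.0% in knockouts and 16.0%, 18.6% and 16.5% in controls 1 to 3, so this covariate partly follows genotype. A call lost with it, here or below, does not by itself show that the groups were alike.

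The other pathway genes overlapped between the groups. Ptch1, the hedgehog receptor and itself a target of GLI, was at 126, 119, 125 and 103 CPM in the knockouts and 94.2, 127 and 111 CPM in the controls, fully overlapping (log2 fold change 0.09, SE 0.108, adjusted p = 0.719). Hhip, a target that encodes a hedgehog-binding decoy, had -0.09, and Gli2, the main activating GLI factor, had 0.04 (adjusted p = 0.757 and 0.899). Mycn, which hedgehog induces in dividing progenitors, was at 3.79 to 4.45 CPM in knockout and 3.82 to 4.19 CPM in control libraries (log2 fold change 0.03, 95% interval -0.21 to 0.26, adjusted p = 0.932). For Ptch1 the 95% interval of -0.16 to 0.34 excludes a fall as large as the estimate for Gli1, but the difference between these genes was not tested. The signs of Ptch1, Gli2, Mycn and Hhip turned under some alternatives.

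Sfrp1, which encodes a secreted WNT antagonist, was at 8.47, 7.51, 18.7 and 8.46 CPM in knockouts 1 to 4 and 6.09, 3.10 and 11.6 CPM in controls 1 to 3. The library numbered 3 was the highest of each group, the same libraries that were high in choroid plexus markers, and the groups overlapped. The log2 fold change was 0.64 (SE 0.518, 95% interval -0.60 to 1.88, adjusted p = 0.599), 0.82 without both libraries numbered 3 (adjusted p = 0.209), 0.23 without knockout 3 (0.813) and 0.29 without control 2 (0.773). It was 1.23 without control 3 (0.408) and 1.38 with the no-feature covariate (0.753). With the replicate block it was called higher (0.80, adjusted p = 0.0385), again without weight from knockout 4. In each of the numbered pairs 1 to 3 the knockout was the higher library.

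**Figure D4:**
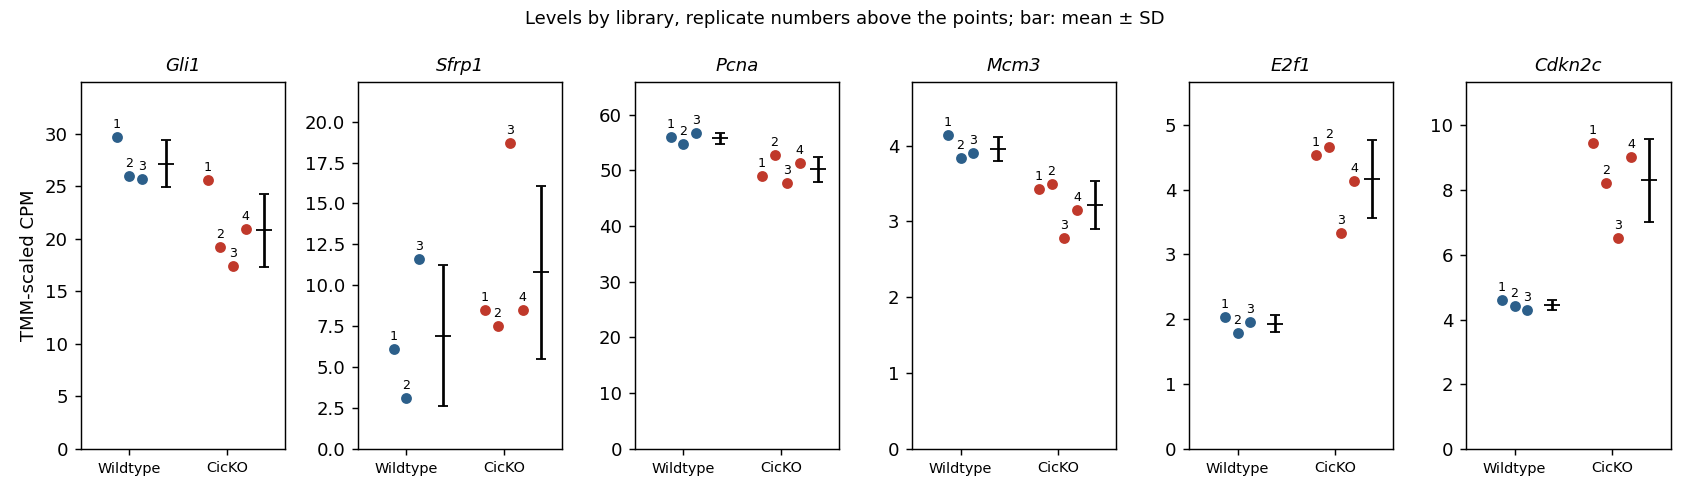
TMM-scaled CPM of Gli1, Sfrp1, Pcna, Mcm3, E2f1 and Cdkn2c in each library (replicate number above each point), with group mean and SD as a black bar; each panel starts at 0 and has its own scale. Knockouts lie below controls for Gli1, Pcna and Mcm3, above them for E2f1 and Cdkn2c, and overlap for Sfrp1, where the libraries numbered 3 are highest.

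Further genes of replication, mitosis and the hedgehog pathway had no call in the main edgeR test. Over all genes that test called 1.25% higher and 0.828% lower (8.06% and 8.16% unadjusted), and DESeq2 called 678 genes higher and 502 lower. Of 24 other DNA replication genes, all tested, edgeR called 0 higher and 0 lower (0 and 2 at an unadjusted p below 0.05, 0 and 0 in DESeq2 and in limma-voom), with a median log2 fold change of -0.03. Of 28 other mitosis genes 26 were tested and 0 were called in either direction (3 higher and 3 lower unadjusted, 0 in limma-voom, and Cdc20 lower in DESeq2 at an adjusted p of 0.0445), with a median of 0.05. Of 17 other hedgehog pathway genes 16 were tested and 0 were called (0 higher and 1 lower unadjusted, 0 in limma-voom, and Evc, a ciliary component of the pathway, lower in DESeq2 at 0.0404), with a median of -0.07. Shh itself was at 4.71 to 5.75 CPM in knockout and 5.44 to 5.71 CPM in control libraries, and the signal transducer Smo at 26.1 to 31.1 and 26.0 to 32.5 CPM. With the replicate block Anln, listed with the mitosis genes, was called lower (-0.39, adjusted p = 0.0128).

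Among genes that govern entry into the cycle, E2f1 and Cdkn2c rose in the knockouts. The list of E2F, Rb family and CDK inhibitor genes held 21 genes, of which 19 were tested, with a median log2 fold change of 0.01. In it 2 were called higher and 0 lower (3 and 4 at an unadjusted p below 0.05), beside 1.25% and 0.828% of all genes (8.06% and 8.16% unadjusted). E2f1, the activator of S phase genes, was at 4.54, 4.66, 3.33 and 4.14 CPM in knockouts 1 to 4 and 2.04, 1.78 and 1.96 CPM in controls 1 to 3. Every knockout was well above every control, a 2.16-fold rise (log2 fold change 1.11, SE 0.148, adjusted p = 0.0105). In the same libraries the 12 S phase genes, several of them E2F targets, gave the values above, with 0 called. The call of E2f1 was lost without knockout 1 (adjusted p = 0.0502) or control 3 (0.0619) and with the no-feature covariate (0.0747), within a range from 3.38e-09 to 0.0747 over all alternatives.

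E2f1 lies on the minus strand of chromosome 2 at 154559407 to 154569892, and its 3′ neighbour Necab3, a calcium-binding protein gene, begins 516 bases further on the same strand, at 154544399 to 154558890. Necab3 was at 106, 99.6, 57.9 and 109 CPM in knockouts 1 to 4 and 25.7, 17.2 and 19.6 CPM in controls 1 to 3 (log2 fold change 2.16, adjusted p = 0.0143, and 0.0586 without knockout 1, 0.0765 without control 3 and 0.0863 with the no-feature covariate). Knockout 3 was the lowest knockout for both genes. Whether transcription across the pair contributed to the count of E2f1 was not tested, and the gene on its other side, Pxmp4, had a log2 fold change of 0.19 (adjusted p = 0.296).

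Cdkn2c, which encodes the p18 inhibitor of CDK4 and CDK6 and is known as a brake on granule progenitor division, was at 9.45, 8.23, 6.53 and 9.01 CPM in the knockouts and 4.60, 4.43 and 4.30 CPM in the controls. The groups were far apart, a 1.87-fold rise (log2 fold change 0.90, SE 0.135, adjusted p = 0.018). Single omissions of knockout 1, 2 or 4 or of control 1 or 3 ended this call, at adjusted p up to 0.0924 without control 3, as did the no-feature covariate (0.15). Cdkn1b, the inhibitor that keeps granule neurons out of the cycle, was at 113 to 126 CPM in knockout and 118 to 123 CPM in control libraries (log2 fold change -0.02, adjusted p = 0.903).

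Of 16 other genes of granule progenitors and the external granular layer, 15 were tested, with a median log2 fold change of -0.05. Of these, 1 was called higher and 0 lower (2 and 1 unadjusted), beside 1.25% and 0.828% of all genes (8.06% and 8.16% unadjusted). The called gene was Cxcr4, a chemokine receptor that holds progenitors at the cerebellar surface, at 4.54, 6.61, 5.46 and 3.39 CPM in knockouts 1 to 4 and 2.497, 2.32 and 2.30 CPM in controls 1 to 3. All knockouts were above all controls, a 2.11-fold rise (log2 fold change 1.08, SE 0.213, adjusted p = 0.0452). Omitting knockout 1 or 2 or any control ended the call (up to 0.184 without control 3), as did leaving out both libraries numbered 3 (0.132), limma-voom (0.0752) and the no-feature covariate (0.311). Dcx, a microtubule gene of migrating young neurons, had 0.53 (adjusted p = 0.11), and was called with the replicate block (0.0319) and in DESeq2 (0.00962).

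Cxcr4 is also expressed by microglia and endothelium. The summed level of 8 microglia markers was 144 to 200 CPM in knockout and 170 to 179 CPM in control libraries, and that of 8 endothelial markers 192 to 234 and 179 to 206 CPM. For 8 genes listed for oligodendrocyte precursors, a cell type that divides in the adult brain, it was 201 to 270 and 256 to 301 CPM. In these 3 lists all genes were detected, and the main edgeR test and limma-voom called 0 higher or lower. At an unadjusted edgeR p below 0.05, 1 gene of the endothelial list was higher and 2 of the precursor list were lower, beside 8.06% and 8.16% of all genes. DESeq2 called Slco1a4 of the endothelial list higher and Bcas1 of the precursor list lower (log2 fold changes 0.38 and -0.56, adjusted p = 0.0275 and 0.00569), beside 678 and 502 of all genes. In edgeR both were also called without knockout 2 (0.47 and -0.71, adjusted p = 0.03555 and 0.02895) and with the replicate block (0.34 and -0.49, adjusted p = 0.049 and 0.00927). Bcas1 was the largest part of the precursor sum, at 89.1 to 139 CPM in knockout and 135 to 174 CPM in control libraries. Of the 8 genes of the precursor list, 3 had positive and 5 negative log2 fold changes, with 0.016 for Pdgfra and 0.13 for Cspg4. Whether each of the 8 is particular to dividing precursors was not tested, so the sum does not measure those cells. The part of these 3 cell types in the levels of the proliferation genes was not tested.

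The tissue and the labels were checked on genes outside the list. All 10 cerebellar neuron markers were detected, at a summed level of 10642 to 14490 CPM in knockout and 10954 to 12846 CPM in control libraries, with 0 called by edgeR, DESeq2 or limma-voom and 0 at an unadjusted p below 0.05. Without knockout 3 the Purkinje cell markers Calb1 and Ppp1r17 were called higher (log2 fold changes 0.29 and 0.37, adjusted p = 0.0473 and 0.0193). Cic was at 144 to 147 CPM in knockout and 216 to 257 CPM in control libraries, lower in every knockout library (log2 fold change -0.66, adjusted p = 0.00256). The knockout level was 0.631 times that of the controls, so much of the Cic count remained in the tissue. Of 6 red blood cell genes, 4 were listed at 0 in all libraries, and Slc4a1 was called lower (0.480 to 0.827 against 1.94 to 2.10 CPM, adjusted p = 0.00946, and 0.053 without control 1 or 0.117 with the no-feature covariate).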

How the data were processed

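RNA of cerebellum was sequenced from 4 CicKO and 3 Wildtype libraries. The submitters' processing notes name the tools STAR (2.5.3a), HTSeq and DESeq2 and the build mm10; versions of HTSeq and DESeq2, the annotation, strand setting and read filters were not given in the sources used here. For each library the authors deposited a file of unnormalized read counts by gene symbol. Rows naming no gene were set aside. The no-feature row held 18.2% to 19.0% of entries in knockout and 16.0% to 18.6% in control libraries, and the ambiguous row 1.27% to 1.37% over all libraries.

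Counts were analysed in R 4.3.3 with edgeR 4.0.16: filterByExpr left 16905 genes, scaled by TMM, and genotype alone entered the robust quasi-likelihood test, whose p-values were adjusted over all of them (Benjamini-Hochberg, calls below 0.05). Standard errors are |log2 fold change| / √F, and 95% intervals use the residual and prior degrees of freedom of that fit. The test was checked on simulated data. DESeq2 1.42.0 and limma 3.58.1 (voom), other scalings and filters, omitted libraries, a replicate block and the share of no-feature entries as a covariate were alternatives. Lengths and coordinates came from GENCODE M21 (GRCm38, called mm10). Near-identical copies were stretches of at least 200 bases at 95% identity or more between a member's longest transcript and another gene's, found with minimap2 2.31.

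Replicate numbers 1 to 3 occur in both groups. Taken as differences from the group mean, libraries with the same number correlated over genes at 0.176, 0.463 and 0.785. Each value exceeded 0.1, and the numbers were treated as pairs in the replicate block only, not in the main test. Knockout 1 also correlated with control 2 (0.440) and knockout 4 with control 1 (0.346). The labels do not say what the number marks. Blocked values are given where they change a call.

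Members and lists were chosen with earlier results of these data known. Named genes were Cic, all 31 members and up to 4 called genes of each other list and marker list, smallest p first, and genes at or under 3 counts in all libraries only as such; Shh, Smo, Cdkn1b, Dcx, Anln, Cdc20, Evc, Prc1, Slco1a4, Bcas1, Calb1, Ppp1r17, Necab3 and Pxmp4 were named after their values were seen. The result of 1 listed gene is not reported here.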

Additional observations from a re-analysis of the deposited data

Results flagged for a closer look

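In each of 3 genes, 1 knockout library stood apart from the other 3 knockouts by a gap that exceeded Dixon's 95% critical value for the gap divided by the range. Sfrp1 was at 18.7 CPM in knockout 3 against 7.51 to 8.47 CPM in the others. Cenpf was at 0.677 CPM in knockout 3 against 0.215 to 0.276 CPM. Aurkb was at 0.0588 CPM in knockout 2 against 0.123 to 0.133 CPM. Knockout 3 was 1 of the 2 libraries high in choroid plexus markers, and the part of that tissue in these values was not tested. Among 39 genes examined in this way chance flags about 1 in 20, and the 3 controls were too few for the same check.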

How the results depend on the processing

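The count of 0 members called in either direction held under every alternative except the replicate block, which called 1 higher (Sfrp1) and 1 lower (Gli1), and, outside the members, Dcx, Anln, Slco1a4 and Bcas1; it changed no other call of a named gene. Over all genes, 212 higher and 140 lower became 678 and 502 in DESeq2, 310 and 204 with the replicate block, 46 and 12 with the no-feature covariate, and 65 to 493 and 21 to 349 over single omitted libraries. Of 471 log2 fold changes of members over the alternatives, 432 kept their sign and their side of the threshold, 2 passed it and 37 turned sign, and 16 of 30 members kept 1 sign throughout. Turned values were, with the no-feature share as a covariate, Mcm2 -0.0306, Rrm2 0.0061, Tk1 -0.13, Top2a -0.0532, Cdk1 -0.14, Bub1 -0.43, Ptch1 -0.0888 and Hhip 0.0518; with the replicate block Top2a -0.0643, Bub1 -0.22 and Gli2 -0.0217; with both libraries numbered 3 left out Rrm2 0.0061 and Bub1 -0.63; and Bub1 -0.18 in limma-voom. Over single omitted libraries the ranges that crossed 0 were -0.0003998 to 0.13 for Mcm2, -0.15 to 0.00026 for Mcm6, -0.21 to 0.11 for Tyms, -0.25 to 0.39 for Tk1, -0.12 to 0.51 for Top2a, -0.34 to 0.66 for Cdk1, -0.52 to 0.30 for Bub1, -0.27 to 0.10 for Aurkb, -0.55 to 0.13 for Cenpf, -0.0257 to 0.13 for Gli2, -0.0036 to 0.21 for Ptch1 and -0.0164 to 0.0651 for Mycn. The cause was not tested.

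Other lists moved in these counts. The external granular layer genes had 2 higher in DESeq2 and with the replicate block, 0 in limma-voom, with the no-feature share and with both libraries numbered 3 left out, and 0 to 1 higher over omitted libraries. The E2F, Rb family and inhibitor genes had 0 higher with the no-feature share and 0 to 2 over omitted libraries. The mitosis genes had 1 lower in DESeq2 and with the replicate block and 0 to 1 higher over omitted libraries (Prc1, without control 2), and the hedgehog genes 1 lower in DESeq2. With the longest transcript as length, median CPM per kilobase was 3.02 and 3.05 for S phase, 0.106 and 0.0876 for G2 and M phase, and 1.55 for hedgehog genes in knockouts (controls second where given). The mitotic genes had 6 to 298 counts per library, and the part of depth in their wide intervals was not tested.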
